A study of Mus musculus with 29 samples.

Results

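The genes of DNA replication and cell division were described in RNA from the aortic arch, as a list of 49 named genes among the 56748 genes of the counts table. The list is a set of gene symbols, each of which matched 1 Ensembl identifier, and the genes were arranged in 9 roles that run from the loading of the replicative helicase to the final cut between daughter cells. The samples came from Ercc1Δ/− mice, which carry a truncating and a null allele of the DNA repair gene Ercc1 in every tissue, and from wildtype (WT, Ercc1+/+) littermates, all in an F1 C57BL6J/FVB hybrid background and all individually housed on AIN93G pellets. Mice fed ad libitum (AL) were killed at 6 weeks (5 WT and 5 Ercc1Δ/−) or at 22 weeks (5 WT, of which 4 were used, and 4 Ercc1Δ/−). Mice on dietary restriction (DR), which began at 7 weeks of age and stood at 30% less food from 9 weeks on, were killed at 22 weeks (5 WT and 5 Ercc1Δ/−). Both sexes were present in each group. The deletion is not limited to the vessel, so that a difference between genotypes in the arch cannot be assigned to vascular cells alone.

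Proliferating cells load the MCM helicase onto origins in G1, fire these origins with Cdc45 and the GINS complex in S phase, and copy their DNA with nucleotides made by ribonucleotide reductase and thymidylate synthase. They then enter mitosis under Cdk1 and its cyclins, build a spindle, release the sister chromatids through the anaphase-promoting complex (APC/C) and divide by cytokinesis. Most of these genes are transcribed in cycling cells and repressed in resting ones. In the healthy adult arch few smooth muscle cells, fibroblasts or endothelial cells divide. In RNA from whole tissue, a change in the share of cycling cells and a change in the RNA per cycling cell cannot be told apart.

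The 28 samples used held 921167 to 9616382 deduplicated counts on genes (median 3256708). At 22 weeks the totals did not overlap between the genotypes on either diet, with more counts in WT mice. They were 3903589 to 9616382 in WT and 1294980 to 3855444 in Ercc1Δ/− mice on AL, and 2660422 to 6124471 and 921167 to 2572523 on DR. Values below are normalized counts, which are counts scaled to a library of 3683502, and they compare samples within a gene but not genes with each other. Ercc1 itself was lower in Ercc1Δ/− mice at 6 weeks (log2 fold change −1.41 ± 0.18 SE), at 22 weeks on AL (−0.97 ± 0.20) and at 22 weeks on DR (−1.01 ± 0.19), as the genotype labels state. All 8 smooth muscle markers, among them Myh11 and Acta2, were detected in all samples. Of the 8 granulocyte and marrow markers, Mpo and Camp had no count in any of the 28 samples, Elane had none in 27, Ngp in 26 and Prtn3 in 22, while Ltf, S100a8 and S100a9 were detected in 19, 18 and 11 samples. Of the 10 thymocyte and T cell markers, Rag2 had no count in 27 samples, Ptcra in 24, Rag1 and Themis in 23 and Dntt in 22. Cd8b1 had none in 18, Cd8a in 17, Cd3e in 14, Lck in 10 and Cd4 in 6, so that T cell RNA was present in part of the samples. Red cell RNA was present in all samples, with summed erythroid markers of 48.2 to 5726 normalized counts (highest in mouse 001) and no count of Alas2 in 2 samples only. The summed thymocyte and T cell markers reached 61.2 normalized counts in mouse 001 (WT, 6 weeks) and at most 26.3 elsewhere. Mouse 001 also held 4191 normalized counts of Schwann cell markers against at most 305 elsewhere. Mouse 016 (Ercc1Δ/−, DR) held 62.4 of B cell and 98.4 of granulocyte markers, whereas mice 011 (WT, 6 weeks, 955589 counts) and 014 (Ercc1Δ/−, DR, 921167 counts) were the shallowest.

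Counts of these genes were low. A gene was tested only where at least 11 samples held over 10 counts of it, which left 23 of the 49 genes, and 26 could not be tested. All 6 MCM genes were testable, as were 4 of 5 mitotic chromosome genes and 3 of 4 genes of nucleotide supply. Only 1 of 6 cyclins and Cdk1, 1 of 8 mitotic kinases, checkpoint and APC/C genes and 1 of 3 genes of DNA methylation maintenance passed. The 26 genes under the limit held 35 to 260 raw counts each over the 28 samples together, against 269 to 7238 for the 23 above it. The limit can be met through Ercc1Δ/− samples alone, which number 14. Mki67 passed with 9 Ercc1Δ/− and 5 WT samples above 10 counts, so that the counts of passing genes given below describe these genes and not the whole list.

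A subset of the replication and division genes was higher in the Ercc1Δ/− arch than in the WT arch at both ages and on both diets. Of the 23 testable genes, 11 belonged to the roles of cell division and 12 to those of replication. The S phase cyclin gene Ccne2 was counted with the division roles, through the role of cyclins and Cdk1. Division genes made up 4 of the 4 that rose at 6 weeks, 5 of 6 on AL at 22 weeks and 4 of 6 on DR, and the difference between these shares and that of the replication genes was not tested. A gene was called a differentially expressed gene (DEG) at an adjusted p of at most 0.05 and a change of at least 1.2-fold. At 6 weeks 4 of the 23 testable genes were higher DEGs and none was a lower DEG (17.4%), where 1.7% of all 12353 tested genes were DEGs (0.567% higher and 1.13% lower). In AL-fed mice of 22 weeks 6 of 23 were higher DEGs (26.1%), against 12% DEGs among all genes (5.88% higher and 6.16% lower). On DR at 22 weeks 6 of 23 were higher DEGs (26.1%), against 13% DEGs among all genes (5.97% higher and 7.03% lower). The median log2 fold change of the 23 genes was 0.32 at 6 weeks, 0.39 on AL at 22 weeks and 0.40 on DR, while that of all tested genes was 0.02, 0.03 and 0.00. Of the 23, 19, 20 and 20 had a positive fold change in these comparisons, and each but Cdc20 on AL at 22 weeks had the same sign in its group means. In the main fit Top2a and Prc1 were DEGs in all 3 comparisons, but DESeq2 did not call Prc1 on AL at 22 weeks.

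**Figure D1:**
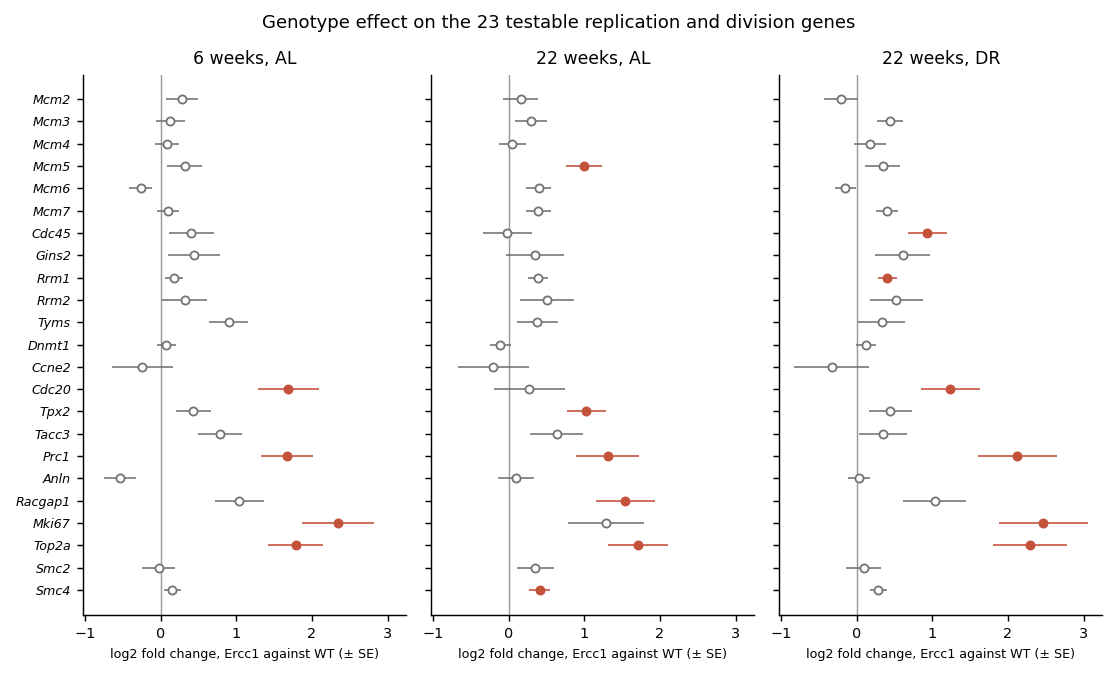
Log2 fold change (x axis, ± SE) of Ercc1Δ/− against WT mice for the 23 testable genes (rows, ordered by role) at 6 weeks on AL, at 22 weeks on AL and at 22 weeks on DR. Filled red points are DEGs (4, 6 and 6 genes), and open grey points are not; Mki67 reaches 2.34 and 2.47 at 6 weeks and on DR, Top2a reaches 1.71 on AL at 22 weeks, and the 6 MCM genes lie between −0.27 and 1.00.

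The genes of mitotic chromosome structure included Mki67 and Top2a, of which Mki67 had the highest fold change at 6 weeks and on DR and Top2a the highest on AL at 22 weeks. Mki67 (ENSMUSG00000031004, GRCm39 chromosome 7, 135291513–135318299, minus strand) encodes Ki-67, the coat protein of mitotic chromosomes that is used as a marker of cycling cells. At 6 weeks its normalized counts in the 5 WT mice were 4.47, 5.71, 8.04, 9.82 and 15.9. In the 5 Ercc1Δ/− mice they were 20.3, 31.7, 50.2, 61.4 and 65.7, so that each Ercc1Δ/− mouse lay above each WT mouse. The log2 fold change was 2.34 ± 0.48 (SE, adjusted p = 0.0152), and the exact two-sided permutation test over the mice gave the smallest p that 5 against 5 allows, 0.00794. For Mki67 in AL-fed mice of 22 weeks, the WT values were 6.08, 7.76, 15.7 and 29.1 and the Ercc1Δ/− values 9.95, 22.3, 31.6 and 44.1. These overlapped, and the difference was not a DEG (1.28 ± 0.50, adjusted p = 0.106). On DR the WT values were 1.45, 1.82, 2.40, 4.56 and 6.01, and the Ercc1Δ/− values 3.94, 11.4, 23.5, 25.9 and 28.8. Here 4 of 5 Ercc1Δ/− mice exceeded all WT mice and Mki67 was a DEG (2.47 ± 0.59, adjusted p = 0.00666).

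Top2a (ENSMUSG00000020914, chromosome 11, 98883769–98915062, minus strand) encodes topoisomerase II alpha, which untangles sister chromatids and is made in S and G2 phase. Its normalized counts at 6 weeks were 4.02, 7.32, 9.82, 11.4 and 14.2 in WT mice and 16.9, 26.1, 27.5, 29.3 and 72.0 in Ercc1Δ/− mice. In AL-fed mice of 22 weeks they were 6.79, 7.98, 8.29 and 14.5 in WT and 16.7, 17.4, 31.5 and 32.5 in Ercc1Δ/− mice. On DR they were 1.2, 1.82, 2.9, 3.91 and 4.68 in WT and 5.72, 7.06, 7.87, 23.2 and 28.8 in Ercc1Δ/− mice. The genotypes did not overlap in any of the 3 comparisons. The log2 fold changes were 1.78 ± 0.36 (adjusted p = 0.0109), 1.71 ± 0.40 (0.00633) and 2.29 ± 0.49 (0.00226). Values that lay higher in all Ercc1Δ/− mice than in all WT mice were found for 1.07%, 9.01% and 3.08% of all tested genes in these comparisons and for 3, 7 and 5 of the 23.

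The promoter of Top2a is shown because it holds several copies of the short elements that cell cycle genes share. Through CHR elements (TTTGAA or TTCGAA) the DREAM complex represses G2 and M phase genes in resting cells, and in cycling cells B-Myb and FoxM1 act through the same elements, and NF-Y through CCAAT boxes, to activate these genes. In the 250 bases before the start of the canonical transcript, 3 CHR matches and 6 CCAAT matches were found. The stretch that lies outside the gene is printed from GRCm39, chr11:98915063-98915291, minus strand, with the matches on either strand in capitals.
Top2a: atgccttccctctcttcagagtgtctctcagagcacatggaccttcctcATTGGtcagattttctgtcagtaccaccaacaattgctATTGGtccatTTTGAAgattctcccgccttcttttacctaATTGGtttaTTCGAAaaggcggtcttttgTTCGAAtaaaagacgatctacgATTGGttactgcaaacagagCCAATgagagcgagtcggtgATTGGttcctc
A match is a run of letters and not a measured binding site.

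Of the condensin subunits, Smc4 and Smc2 had more counts than Mki67 and Top2a. Smc4, which is shared by both condensin complexes that compact chromosomes, had 131, 137, 140 and 156 normalized counts in AL-fed WT mice at 22 weeks and 167, 171, 184 and 241 in Ercc1Δ/− mice. The groups did not overlap and Smc4 was a DEG at the edge of the limit (0.41 ± 0.13, adjusted p = 0.0477). On DR it had 142 to 176 in WT and 177 to 240 in Ercc1Δ/− mice, again without overlap, but it was not a DEG (0.29 ± 0.12, adjusted p = 0.103). Its partner Smc2 had log2 fold changes of −0.02, 0.35 and 0.09 in the 3 comparisons and was not a DEG in any. Ncapg, a further condensin subunit, was not testable and had at most 7 raw counts in a sample and none in any Ercc1Δ/− mouse on DR.

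**Figure D2:**
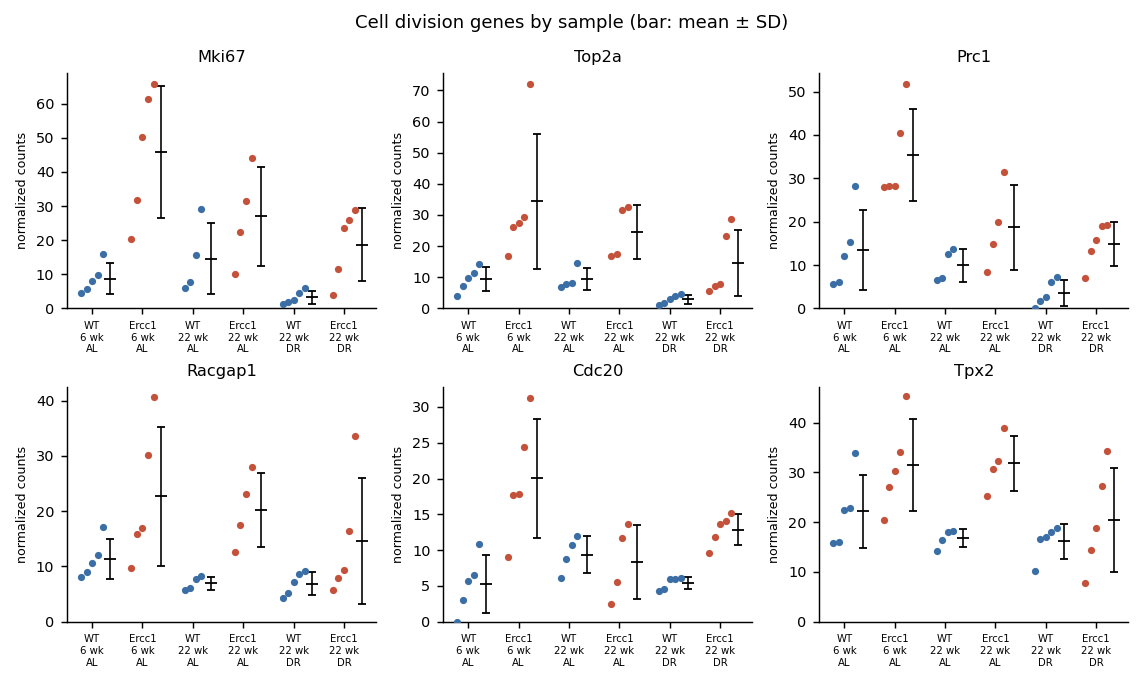
Normalized counts (y axis) of Mki67, Top2a, Prc1, Racgap1, Cdc20 and Tpx2 in each of the 28 mice (points; WT blue, Ercc1Δ/− red) by genotype, age and diet (x axis), with the mean ± SD beside each group (n = 4 or 5). The Ercc1Δ/− mice lie above all WT mice of the same age and diet for Top2a in each pair of groups, whereas the WT mice on DR lie at 0 to 7.26 for Mki67, Top2a and Prc1.

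The testable cytokinesis genes were Prc1, Racgap1 and Anln, of which the first 2 rose. Prc1 (ENSMUSG00000038943, chromosome 7) bundles the microtubules of the central spindle. It had 5.71, 6.10, 12.1, 15.3 and 28.1 normalized counts in WT mice at 6 weeks, and 27.9, 28.1, 28.3, 40.5 and 51.6 in Ercc1Δ/− mice. A single WT mouse thus reached the range of the Ercc1Δ/− mice (1.67 ± 0.35, adjusted p = 0.0127). Among AL-fed mice of 22 weeks, the WT mice had 6.46, 6.91, 12.6 and 13.7 and the Ercc1Δ/− mice 8.37, 14.9, 19.8 and 31.5, which overlapped (1.31 ± 0.42, adjusted p = 0.0416). That call was lost with DESeq2 (adjusted p = 0.0661), with sample 003 included (0.0547) and in the fit to the 2 groups alone (0.0939). It was also lost with the earlier dispersion method of edgeR (0.0748) and with each library thinned to 921167 counts (0.582). On DR the WT mice had 0, 1.82, 2.60, 6.01 and 7.26 and the Ercc1Δ/− mice 7.06, 13.3, 15.7, 19.1 and 19.2 (2.12 ± 0.53, adjusted p = 0.00744).

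Racgap1, the GTPase activator of the centralspindlin complex, had 5.82, 6.08, 7.69 and 8.29 normalized counts in AL-fed WT mice at 22 weeks and 12.6, 17.4, 23.1 and 27.9 in Ercc1Δ/− mice. The groups did not overlap and Racgap1 was a DEG (1.54 ± 0.39, adjusted p = 0.0111). Its fold changes at 6 weeks (1.04 ± 0.32, adjusted p = 0.119) and on DR (1.03 ± 0.42, adjusted p = 0.106) did not pass. Anln encodes the actin-binding scaffold anillin. It had 183 to 421 normalized counts in WT and 149 to 250 in Ercc1Δ/− mice at 6 weeks, with a fold change of −0.54 ± 0.22 (adjusted p = 0.286). At 22 weeks its fold changes were 0.10 on AL and 0.03 on DR.

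Of the spindle and kinetochore genes, Tpx2 and Tacc3 were testable. Tpx2, which activates Aurora A on the spindle, had 14.3, 16.5, 17.9 and 18.2 normalized counts in AL-fed WT mice at 22 weeks and 25.3, 30.7, 32.4 and 38.9 in Ercc1Δ/− mice. The values did not overlap and Tpx2 was a DEG (1.03 ± 0.26, adjusted p = 0.0118). It was not a DEG at 6 weeks (0.43 ± 0.23) or on DR (0.44 ± 0.28), where the groups overlapped. Tacc3, a microtubule-stabilizing partner of Aurora A, had fold changes of 0.78 ± 0.29, 0.63 ± 0.35 and 0.35 ± 0.31 and was not a DEG.

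Cdc20, the activator of the APC/C at the onset of anaphase, was the testable gene among the mitotic kinases, checkpoint and APC/C genes. At 6 weeks it had 0, 3.02, 5.71, 6.50 and 10.9 normalized counts in WT mice and 9.00, 17.7, 17.8, 24.4 and 31.3 in Ercc1Δ/− mice (1.69 ± 0.40, adjusted p = 0.0323). In the older AL-fed mice, the WT animals had 6.08, 8.75, 10.7 and 12.0 and the Ercc1Δ/− mice 2.49, 5.58, 11.7 and 13.7, which overlapped. The group mean was 9.37 in WT and 8.36 in Ercc1Δ/− mice, whereas the fitted fold change, which takes sex into account, had the opposite sign and was smaller than its error (0.27 ± 0.47). On DR the WT mice had 4.35, 4.56, 5.99, 6.01 and 6.08 and the Ercc1Δ/− mice 9.60, 11.8, 13.6, 14.1 and 15.2, without overlap (1.24 ± 0.39, adjusted p = 0.0344). Of the cyclins and Cdk1, Ccne2 (cyclin E2, which starts S phase) was testable. It had 8.73 to 22.8 in WT and 4.86 to 19.5 in Ercc1Δ/− mice at 6 weeks, and its fold changes of −0.24, −0.20 and −0.33 were not DEGs.

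The promoter of Cdc20 held 1 CHR match and no CCAAT match in the window. It is printed for comparison with that of Top2a from GRCm39, chr4:118294611-118294860, minus strand.
Cdc20: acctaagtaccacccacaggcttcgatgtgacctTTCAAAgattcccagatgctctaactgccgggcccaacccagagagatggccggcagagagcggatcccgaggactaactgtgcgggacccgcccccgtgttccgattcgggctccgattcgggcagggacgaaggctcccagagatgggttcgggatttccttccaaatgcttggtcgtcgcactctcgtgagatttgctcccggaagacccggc

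Among the genes of replication, the MCM helicase showed small differences between the genotypes. The 6 subunits form the ring that unwinds DNA at the fork, and their median log2 fold changes between genotypes were 0.11 at 6 weeks, 0.34 on AL at 22 weeks and 0.26 on DR. Mcm5 (ENSMUSG00000005410, chromosome 8, 75836140–75856231, plus strand) was the DEG among them. In AL-fed WT mice at 22 weeks it had 22.0, 34.0, 35.0 and 43.6 normalized counts. In AL-fed Ercc1Δ/− mice at 22 weeks it had 55.0, 64.2, 69.3 and 94.6, all above the WT mice (1.00 ± 0.24, adjusted p = 0.00793). At 6 weeks the genotypes overlapped at 25.1 to 46.3 in WT and 34.0 to 59.6 in Ercc1Δ/− mice (0.32 ± 0.23, adjusted p = 0.63). On DR the WT mice had 25.4, 26.4, 28.7, 31.0 and 33.4 and the Ercc1Δ/− mice 28.2, 34.3, 35.4, 39.5 and 43.2 (0.34 ± 0.23, adjusted p = 0.379).

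Mcm6 had 151, 173, 177, 189 and 212 normalized counts in WT mice at 6 weeks and 131, 136, 138, 144 and 199 in Ercc1Δ/− mice. At 22 weeks AL-fed mice had 128, 141, 147 and 165 in WT and 151, 174, 181 and 279 in Ercc1Δ/− mice. Neither the fold change at 6 weeks (−0.27 ± 0.15, adjusted p = 0.499) nor that at 22 weeks (0.40 ± 0.17, adjusted p = 0.132) was a DEG, and the groups overlapped both times. Mcm7 did not overlap between the AL-fed genotypes at 22 weeks but was not a DEG (0.39 ± 0.17, adjusted p = 0.134). Mcm2, Mcm3 and Mcm4 had fold changes between −0.20 and 0.44 in the 3 comparisons.

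The promoters of Mcm5 and of Rrm1 are printed because they hold the E2F element (searched as TTCCCGC and in the further spellings TTCGCGC and also TTGCCGC and also TTGGCGC), through which E2F factors switch on genes of G1 and S phase. E2F and CCAAT matches are in capitals, and some E2F matches on opposite strands overlap. In Mcm5, 3 E2F and 2 CCAAT matches were found in GRCm39, chr8:75835890-75836139, plus strand. In Rrm1, 1 E2F and 2 CCAAT matches were found in chr7:102090640-102090889, plus strand.
Mcm5: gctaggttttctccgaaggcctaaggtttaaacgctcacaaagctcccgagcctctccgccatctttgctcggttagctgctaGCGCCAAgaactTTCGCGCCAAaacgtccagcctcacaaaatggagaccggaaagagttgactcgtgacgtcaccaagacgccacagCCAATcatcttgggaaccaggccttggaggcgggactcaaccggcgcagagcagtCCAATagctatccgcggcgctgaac
Rrm1: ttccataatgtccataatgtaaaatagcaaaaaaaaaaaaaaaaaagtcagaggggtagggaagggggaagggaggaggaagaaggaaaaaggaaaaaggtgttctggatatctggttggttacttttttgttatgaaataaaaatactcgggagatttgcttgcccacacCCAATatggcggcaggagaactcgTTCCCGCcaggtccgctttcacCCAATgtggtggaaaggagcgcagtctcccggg

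Over all 49 promoters, CHR matches were found in 12 (24.5%), against 17% of the promoters of 21630 protein-coding genes. E2F matches were found in 10 (20.4%, against 8.9%) and CCAAT matches in 26 (53.1%, against 36.5%). Of the 11653 protein-coding genes that were tested, 13.7% held a CHR match, 12.5% an E2F match and 35.7% a CCAAT match. Of the 31 division genes 11 held a CHR match and 5 an E2F match, whereas of the 18 replication genes 1 held a CHR match and 5 an E2F match. The division genes here include the E cyclins Ccne1 and Ccne2, which each held an E2F match.

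Of the genes of origin licensing and firing, Cdc45 and Gins2 were testable. Cdc45, the part of the active helicase that is loaded when an origin fires, had 8.71, 14.7, 15.6, 15.8 and 16.9 normalized counts in WT mice on DR. It had 24.0, 24.5, 30.6, 31.5 and 34.3 in Ercc1Δ/− mice on DR, all above the WT mice (0.93 ± 0.26, adjusted p = 0.0152). In AL-fed mice of 22 weeks Cdc45 had 14.4 to 16.6 in WT and 5.58 to 21.6 in Ercc1Δ/− mice, with a fold change of −0.02 ± 0.32. Gins2, a subunit of the GINS complex, had fold changes of 0.44, 0.35 and 0.61 and was not a DEG.

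Of the genes of nucleotide supply, Rrm1 changed by small amounts with little spread. It encodes the large subunit of ribonucleotide reductase. On DR it had 85.6, 88.8, 90.5, 97.6 and 117 normalized counts in WT mice and 118, 120, 121, 122 and 151 in Ercc1Δ/− mice (0.41 ± 0.12, adjusted p = 0.0288). Rrm1 in AL-fed mice of 22 weeks had 95.1, 97.6, 99.98 and 105 in WT and 117, 119, 128 and 164 in Ercc1Δ/− mice, also without overlap, and it missed the limit (0.39 ± 0.13, adjusted p = 0.0564). Tyms, thymidylate synthase, had 8.04, 9.82, 12.8, 13.8 and 14.3 in WT mice at 6 weeks and 17.2, 20.3, 22.3, 22.7 and 31.2 in Ercc1Δ/− mice, again without overlap and not a DEG (0.90 ± 0.26, adjusted p = 0.0799). Rrm2, the regulated small subunit of the reductase, had fold changes of 0.32, 0.51 and 0.52 with standard errors of 0.30 to 0.35.

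Dnmt1, which copies DNA methylation onto new strands, showed no difference larger than the spread. It had 145 to 218 normalized counts in WT and 167 to 216 in Ercc1Δ/− mice at 6 weeks, and its fold changes were 0.07 ± 0.13, −0.11 ± 0.14 and 0.12 ± 0.13. Its recruiting partner Uhrf1 was below the count limit, with group means of 4.98 in WT and 18.7 in Ercc1Δ/− mice at 6 weeks.

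**Figure D3:**
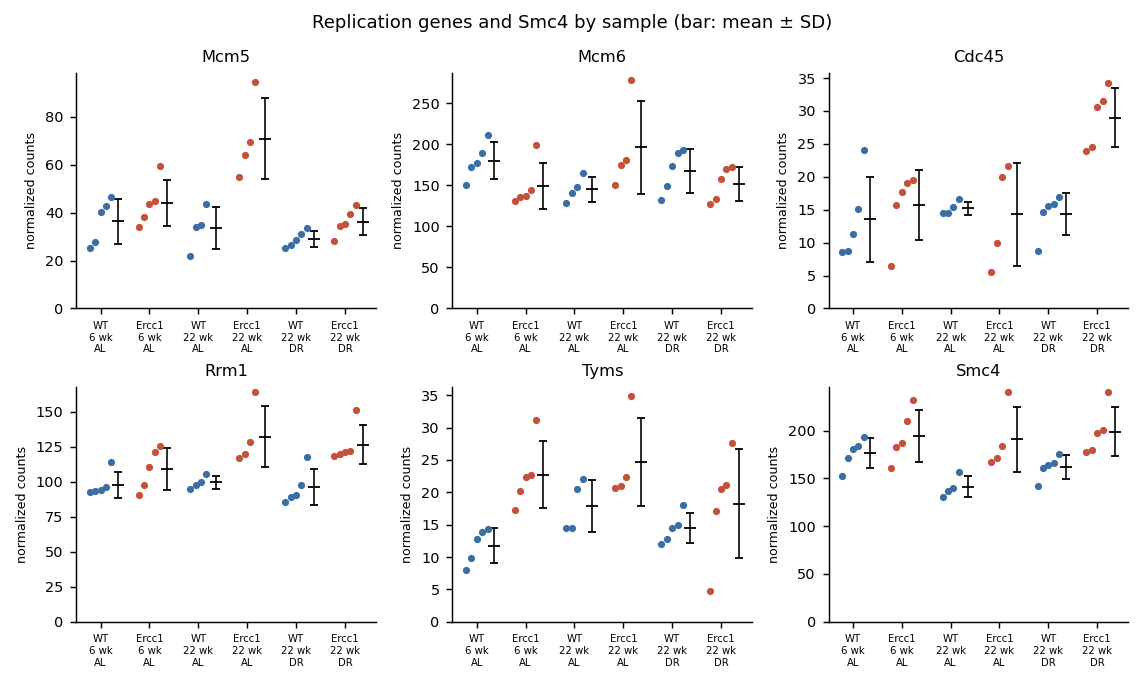
Normalized counts (y axis) of Mcm5, Mcm6, Cdc45, Rrm1, Tyms and Smc4 in each of the 28 mice (points; WT blue, Ercc1Δ/− red) by group (x axis), with the mean ± SD beside each group (n = 4 or 5). Mcm5 is highest in AL-fed Ercc1Δ/− mice at 22 weeks (55.0 to 94.6), and Cdc45 is highest in Ercc1Δ/− mice on DR (24.0 to 34.3).

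The 26 genes below the count limit were described through their group means and their sum. Group means were higher in Ercc1Δ/− than in WT mice for 25 of the 26 at 6 weeks, 24 on AL at 22 weeks and 22 on DR. Among all 3999 untested genes with raw totals in the same range, 60.3%, 64.1% and 64.2% had the higher mean in Ercc1Δ/− mice. The sum of the 26 genes was 88.4 to 160 normalized counts in WT and 178 to 366 in Ercc1Δ/− mice at 6 weeks. The sum was 93.1 to 122 against 179 to 255 on AL at 22 weeks, and 69.5 to 88.5 against 119 to 197 on DR. The genotypes did not overlap in any pair of groups, although a sum can be carried by a few of its genes.

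**Figure D4:**
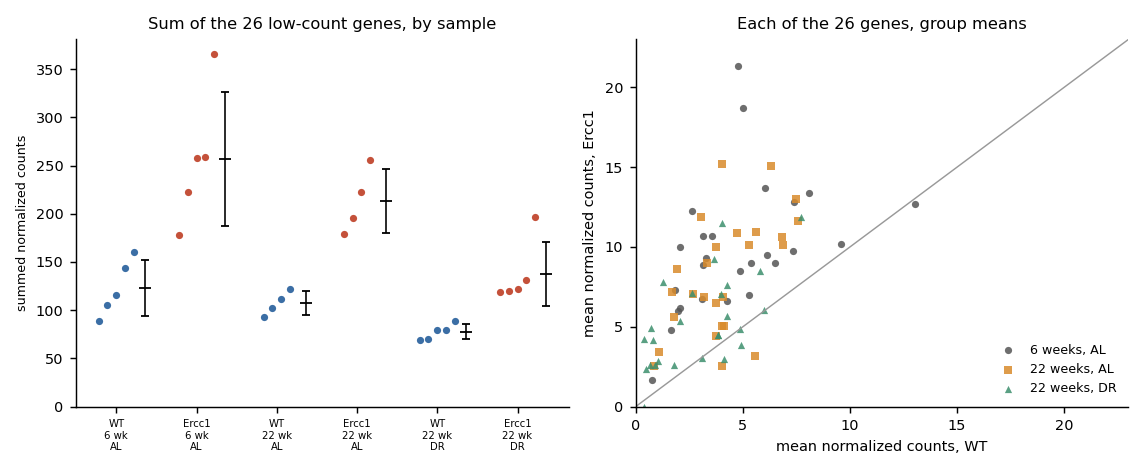
Left, summed normalized counts (y axis) of the 26 genes below the count limit in each mouse (points; WT blue, Ercc1Δ/− red) with the mean ± SD of each group (n = 4 or 5). Right, the mean of each of the 26 genes in Ercc1Δ/− (y axis) against WT mice (x axis) for the 3 pairs of groups, where points above the line of equal means are higher in Ercc1Δ/− mice (25, 24 and 22 of 26).

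When no count limit was used and 28033 genes were tested, several of these 26 became DEGs between genotypes, where 0.91%, 5.87% and 5.94% of all genes were DEGs at 6 weeks, on AL at 22 weeks and on DR. They are named after their values were seen. The same fit no longer called Smc4 on AL at 22 weeks (adjusted p = 0.188) or Cdc45 (0.05003), Cdc20 (0.0929) and Rrm1 (0.161) on DR. At 6 weeks these were Kif20a (1.89 ± 0.38, adjusted p = 0.00221), a kinesin of the central spindle, Ccnb2 (2.17 ± 0.47; 0.00574), a mitotic cyclin, and Cenpf (2.22 ± 0.53; 0.0169), a kinetochore protein. In AL-fed mice of 22 weeks they were Kif20a (1.89 ± 0.46), Cdk1 (2.21 ± 0.55), Aurkb (2.29 ± 0.69), Cenpf (1.65 ± 0.52) and Ccna2 (1.35 ± 0.41), with adjusted p from 0.00478 to 0.041. On DR they were Cdk1 (2.82 ± 0.84), Bub1b (2.25 ± 0.63) and Kif23 (1.51 ± 0.47). Kif20a had 0, 4.07, 5.29, 5.71 and 8.73 normalized counts in WT mice at 6 weeks and 7.88, 14.6, 20.5, 29.2 and 34.4 in Ercc1Δ/− mice. Kif20a in AL-fed mice of 22 weeks had 2.28 to 5.53 in WT and 10.8 to 22.3 in Ercc1Δ/− mice, without overlap. The values of Kif20a rest on 0 to 22 raw counts per sample.

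Age between 6 and 22 weeks changed none of the 23 testable genes past the limit in either genotype. In AL-fed WT mice 0 of 23 were DEGs (0.235% of all genes) and 2 had an unadjusted p under 0.05, with edgeR. The 2 with the smallest p were Smc4 (−0.29 ± 0.12, adjusted p = 0.494) and Tyms (0.53 ± 0.25, adjusted p = 0.575), and Tyms was higher without overlap at 22 weeks (14.4 to 22.1 against 8.04 to 14.3), as were 1.74% of all genes. In AL-fed Ercc1Δ/− mice 0 of 23 were DEGs (4.69% of all genes), 4 had an unadjusted p under 0.05, and the smallest p belonged to Mcm5 (0.58 ± 0.23, adjusted p = 0.174) and Rrm1 (0.27 ± 0.13, adjusted p = 0.263). DESeq2 also called 0 in both. The fold changes of Mki67 with age were 0.61 ± 0.55 in WT and −0.44 ± 0.44 in Ercc1Δ/− mice, and those of Top2a −0.10 ± 0.42 and −0.17 ± 0.34.

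On DR, Mki67 and Top2a lay lower in the WT arch, and Mcm5 lay lower in the Ercc1Δ/− arch. In WT mice the 5 restricted values of Mki67 (1.45 to 6.01) lay below the 4 AL values (6.08 to 29.1). The 5 restricted values of Top2a (1.2 to 4.68) lay below the 4 AL values (6.79 to 14.5). The exact two-sided permutation test gave p = 0.00794 for each, the smallest that 4 against 5 allows. In the fit across all genes neither was a DEG, with −1.95 ± 0.53 (adjusted p = 0.0733) for Mki67 and −1.57 ± 0.45 (adjusted p = 0.0883) for Top2a. By edgeR 0 of 23 were DEGs in WT mice (1.28% of all genes) and 5 had an unadjusted p under 0.05. DESeq2 called Mki67 (1 of 23, against 1.85% of all genes), and edgeR without the count limit called Mki67 and Top2a (2 of 49, against 1.07% of all genes). Values that lay lower without overlap were found for 2 of 23 (8.7%), against 2.68% of all tested genes.

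In Ercc1Δ/− mice 1 of 23 was a DEG on DR against AL, and it was lower (1.64% of all genes were DEGs and 0.988% lower DEGs). Mcm5 had 28.2, 34.3, 35.4, 39.5 and 43.2 normalized counts on DR against 55.0, 64.2, 69.3 and 94.6 on AL, without overlap (−0.92 ± 0.23, adjusted p = 0.041). The values on DR lay within the range of 6-week Ercc1Δ/− mice or below it. Cdc45 lay higher on DR without overlap, at 24.0 to 34.3 against 5.58 to 21.6 on AL, but was not a DEG (0.84 ± 0.30, adjusted p = 0.151). Among all genes 3.02% lay lower and 2% higher without overlap in this comparison. Mki67 (−0.46 ± 0.47) and Top2a (−0.71 ± 0.39) were not DEGs in Ercc1Δ/− mice. The summed 26 low-count genes lay at 179 to 255 on AL and 119 to 197 on DR in Ercc1Δ/− mice, and at 93.1 to 122 and 69.5 to 88.5 in WT mice. Of the 26, 20 had the lower mean on DR in Ercc1Δ/− mice and 21 in WT mice, against 52.4% and 51.5% of the untested genes of the same totals.

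The differences between these effects were tested as interactions, and 0 of 23 passed. For genotype by age 0.842% of all genes passed, 2 of the 23 had an unadjusted p under 0.05, and the smallest belonged to Mcm6 (0.66 ± 0.23, adjusted p = 0.221) and Cdc20 (−1.41 ± 0.62, adjusted p = 0.386). For genotype by diet 0.0971% of all genes passed, 4 of the 23 had an unadjusted p under 0.05, and the smallest belonged to Mcm6 (−0.60 ± 0.21, adjusted p = 0.371) and Mcm5 (−0.75 ± 0.31, adjusted p = 0.496). DESeq2 also called 0 in both. That a gene was a DEG on one diet or at one age and not at the other was therefore not shown to be a difference between them.

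Other genes of the cell cycle were taken from 5 further lists. Of 41 other replication genes 35 were testable, with 1 higher DEG between genotypes at 6 weeks, 5 on AL at 22 weeks and 2 on DR, and none lower. These are 2.86%, 14.3% and 5.71% of the 35, against the 1.7%, 12% and 13% of all genes that were DEGs. Gmnn (geminin, which blocks relicensing of origins) was higher in all 3 comparisons (0.99 ± 0.25, 0.90 ± 0.28 and 0.75 ± 0.22), and Lig1 (DNA ligase I, which joins Okazaki fragments) was higher at 22 weeks on AL (0.70 ± 0.17) and on DR (0.51 ± 0.15). On AL at 22 weeks Rpa1 (0.43 ± 0.13), which coats single-stranded DNA, and Chaf1a (0.78 ± 0.24), which places histones on new DNA, were also higher. Gmnn at 6 weeks lost its call without any 1 of 8 of the 10 mice, and Lig1 on AL at 22 weeks after thinning (adjusted p = 0.214). Of 45 other mitotic genes 11 were testable and none was a DEG in any comparison, with 4, 3 and 2 at an unadjusted p under 0.05 between the genotypes (edgeR). The sum of all 45 was 605 to 682 normalized counts in WT and 807 to 1117 in Ercc1Δ/− mice at 6 weeks. On AL at 22 weeks it was 622 to 673 and 747 to 913, also without overlap. On DR it was 561 to 662 and 638 to 835, which overlapped. Of 20 E2F, pocket protein and MuvB genes 16 were testable, and E2f5, a repressive E2F, was lower on DR in Ercc1Δ/− than in WT mice (−0.75 ± 0.22). That call was lost after thinning (adjusted p = 0.16), without mice 001, 011, 014 and 016 together (0.129) and without any 1 of 3 of the 10 mice.

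Among 10 testable G1 cyclins, kinases and phosphatases, Ccnd1 (cyclin D1) was higher in Ercc1Δ/− mice at 22 weeks on AL (0.91 ± 0.22, adjusted p = 0.0103) and on DR (1.16 ± 0.20, adjusted p = 0.00045). Myc, a driver of growth and G1 entry, was higher on DR (1.15 ± 0.28), where Cdk6, a kinase partner of cyclin D, was lower (−0.66 ± 0.14). After thinning, Ccnd1 on AL at 22 weeks (adjusted p = 0.0821) and Myc (0.218) and Cdk6 (0.16) on DR lost these calls. Ccnd1 on AL was also lost in the fit to the 2 groups alone (0.0685). The call of Myc was also lost without mice 001, 011, 014 and 016 together (0.0574). In WT mice Ccnd1 (−0.81 ± 0.19, adjusted p = 0.0354) and Ccnd2 (−0.49 ± 0.12, adjusted p = 0.0453) were lower on DR, and each lost its call without any 1 of 7 of the 9 mice. Cdkn1a, which encodes the cyclin-dependent kinase inhibitor p21, was higher in each Ercc1Δ/− group. It had 141 to 195 normalized counts in WT and 331 to 461 in Ercc1Δ/− mice at 6 weeks, 133 to 222 and 567 to 742 on AL at 22 weeks, and 131 to 241 and 578 to 814 on DR. Its log2 fold changes were 1.19 ± 0.13, 2.02 ± 0.15 and 2.02 ± 0.16, and the interaction of genotype and age was 0.83 ± 0.20 (adjusted p = 0.0453). That call was lost with all 6 groups in the fit (adjusted p = 0.057), with sample 003 included (0.115), after thinning (0.305), without mice 001, 011, 014 and 016 together (0.0945) and without any 1 of 12 of the 18 mice. From 6 to 22 weeks it rose in AL-fed Ercc1Δ/− mice (0.80 ± 0.13, adjusted p = 0.000611), where Cdk6 was lower (−0.57 ± 0.15, adjusted p = 0.025). The Cdk6 call was lost with sample 003 included (adjusted p = 0.171), in the fit to the 2 groups alone (0.09), after thinning (0.0821) and without any 1 of 5 of the 9 mice. The fold change of Cdkn1a with DR was 0.06 ± 0.17 in WT and 0.10 ± 0.16 in Ercc1Δ/− mice, and with age in WT mice −0.03 ± 0.14. Cdkn2c, a further inhibitor gene, was higher in AL-fed Ercc1Δ/− mice at 22 weeks (0.92 ± 0.24).

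**Figure D5:**
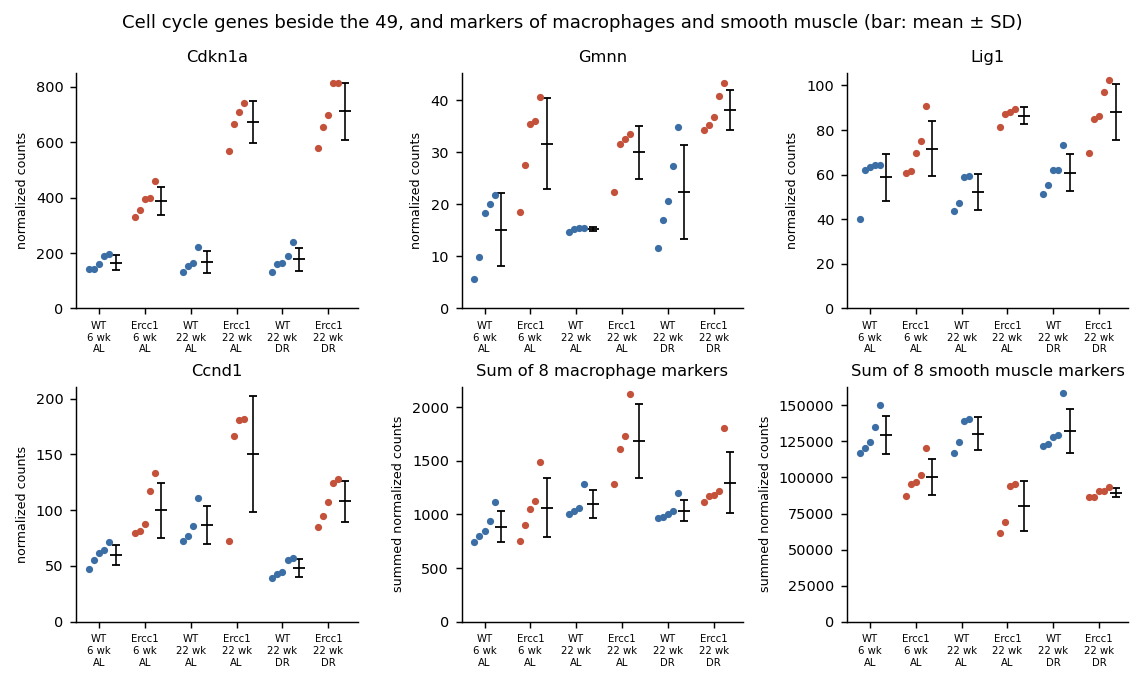
Normalized counts (y axis) of Cdkn1a, Gmnn, Lig1 and Ccnd1 and the summed normalized counts of 8 macrophage and 8 smooth muscle markers in each of the 28 mice (points; WT blue, Ercc1Δ/− red) by group (x axis), with the mean ± SD (n = 4 or 5). Cdkn1a does not overlap between genotypes in any pair of groups (131 to 241 in all WT and 331 to 814 in all Ercc1Δ/− mice), and the macrophage sum overlaps at 6 weeks and on DR.

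Markers of other cells moved with genotype beside these genes. The 8 macrophage markers summed to 745 to 1113 normalized counts in WT and 753 to 1486 in Ercc1Δ/− mice at 6 weeks. They summed to 1005 to 1283 and 1286 to 2122 on AL at 22 weeks, and to 965 to 1200 and 1118 to 1802 on DR. Of the 8, Cd68 was a higher DEG in all 3 comparisons, and Adgre1, Mrc1 and C1qa were higher on AL at 22 weeks, whereas Mertk was lower at 6 weeks and on AL at 22 weeks. In Ercc1Δ/− mice Cd68, Mrc1 and C1qa were lower on DR than on AL, and so were the group means of Csf1r and Fcgr1. The group means of the other markers were higher on DR, with 94.9 against 71.64 on AL for Adgre1, 147.1 against 138.9 for Cd163 and 447.7 against 345 for Mertk. The 8 smooth muscle markers included 2 lower DEGs in Ercc1Δ/− mice at 6 weeks, 6 on AL at 22 weeks and 7 on DR. Of all genes 1.13%, 6.16% and 7.03% were lower DEGs in these comparisons. The cardiomyocyte markers summed to 79.9 to 309 in WT and 213 to 648 in Ercc1Δ/− mice at 6 weeks. The sums were 327 to 803 and 617 to 1264 on AL at 22 weeks, and 331 to 628 and 764 to 2071, without overlap, on DR. On AL at 22 weeks the higher sum came from Tnnt2, with group means of 212.8 in WT and 815.1 in Ercc1Δ/− mice. The means of Myh6 (215.3 and 76.3), Tnni3 (19.47 and 11.67), Actc1 (33.16 and 17.5) and Myl7 (19.56 and 14.52) were lower in Ercc1Δ/− mice there. At 6 weeks and on DR the means of Tnnt2 and of these genes were all higher in Ercc1Δ/− mice. Adipocyte markers ranged more widely, from 2200 to 3763 in WT and 2341 to 11129 in Ercc1Δ/− mice on AL at 22 weeks, and overlapped in each pair of groups. The endothelial sum was 3176 to 3684 in WT and 2557 to 6220 in Ercc1Δ/− mice at 6 weeks. On AL at 22 weeks it was 3264 to 4682 and 2634 to 4281, with the lower mean in Ercc1Δ/− mice. On DR it was 1832 to 3713 and 3379 to 5687, and the genotypes overlapped in each of these comparisons. On DR 3 of its 8 genes (Pecam1, Cdh5 and Tie1) were higher DEGs, as were 5.97% of all genes. Signs of RNA quality also moved with genotype. On AL at 22 weeks mitochondrial genes took 2.47% to 3.72% of counts in WT and 5.37% to 5.96% in Ercc1Δ/− mice, and reads without a unique position made up 3.66% to 4.46% and 5.19% to 5.74%, both without overlap, whereas both measures overlapped at 6 weeks and on DR. Reads without a gene made up 7.48% to 9.09% in WT and 9.34% to 10.1% in Ercc1Δ/− mice on DR, also without overlap. The part of RNA quality and of a changed cell make-up in the values of the replication and division genes was not tested.

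Single libraries decided some of these calls. Without mouse 024 (WT, 6 weeks, 9227924 counts) 0 of the 4 genes stayed DEGs at 6 weeks, where 1.17% of all genes were DEGs. Their log2 fold changes were still between 1.31 and 2.00, with adjusted p between 0.0565 and 0.0919. Cdc20 at 6 weeks lost its call without any 1 of 7 mice (024, 001, 019, 011, 002, 008 and 027), and Mki67 also without mouse 009 (WT). Without mouse 005 (Ercc1Δ/−, 22 weeks, AL) 2 of 6 remained, Mcm5 and Top2a, where 8.63% of all genes were DEGs. Mcm5 lost its call there without mouse 026. In that comparison Smc4 was lost without any 1 of 6 mice (012, 018, 020, 005, 013 and 026) and Prc1 without any 1 of 4 (018, 025, 005 and 004), whereas Top2a stayed a DEG in all 8 omissions. On DR, Top2a, Mki67 and Prc1 stayed DEGs in all 10 omissions. Rrm1 was lost there without any 1 of 5 mice (017, 010, 028, 029 and 016), Cdc20 without any 1 of 5 (017, 010, 006, 029 and 022) and Cdc45 without mouse 029. Without mice 001, 011, 014 and 016 together, 2 genes were DEGs at 6 weeks (Mki67 and Prc1), 5 on AL at 22 weeks and 5 on DR. Of all genes 1.08%, 12.5% and 8.96% were DEGs in that fit. With each library thinned to 921167 counts, 2, 0 and 2 of the 23 genes were DEGs in the 3 genotype comparisons. Of all genes 1.05%, 6.17% and 8.61% were DEGs after thinning, so that the share of the 23 was not above that of all genes on AL at 22 weeks and was close to it on DR. Mcm5 on DR in Ercc1Δ/− mice lost its call without any 1 of 6 mice (005, 013, 026, 006, 014 and 029), with adjusted p up to 0.139.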

How the data were processed

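Aortic arch RNA of 29 mice was sequenced, and 28 samples were analysed. The authors aligned reads with STAR 2.7.10a to GRCm39, removed duplicates with UMI-Tools 1.1.2 and counted reads per gene with HTSeq 2.0.2. They deposited whole-number counts without normalization. The setting for strand in the counting is not given in the sources used here, so reads of a gene and of an antisense partner cannot be told apart. Sample 003 (WT, 22 weeks, AL, 400410 counts) was left out, as the study did, and was added back as an alternative. Reads without a gene (7.27% to 10.1%), ambiguous reads (1.40% to 1.82%) and reads without a unique position (3.66% to 7.06%) stayed out of the tests. All 29 samples matched their sex labels.

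The 49 genes, their roles and the other lists were chosen with earlier results of these data known. A gene entered the tests (12353 did) where at least 11 samples held over 10 counts of it. edgeR 4.0.16 (R 4.3.3; quasi-likelihood F test, robust, TMM factors 0.935 to 1.07) was fitted with group and sex, once over the 18 AL samples (age, and genotype on AL) and once over the 18 samples of 22 weeks (diet, and genotype on DR). These comparisons share groups. Adjusted p-values are Benjamini-Hochberg values over all genes tested, and interaction calls had no limit on the fold change. SE was taken from the log2 fold change and its F statistic. Single genes were also compared by two-sided exact permutation tests over mice. Each sample is taken as 1 mouse. The procedure was tested on simulated data.

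Values per sample are given for the member with the highest mean in each role, for Mki67 and Top2a, and in each comparison for up to 5 DEGs per direction with the smallest p, or the 2 smallest where there was none. Up to 3 DEGs per direction are named from the other lists, and Cdkn1a always. Promoters are 250 bases before the start of the Ensembl canonical transcript of GENCODE vM39 (GRCm39), searched on both strands, and printed for 4 named genes that hold the elements and in the part that lies outside the gene. Alternatives were DESeq2 1.42.0, RLE size factors, no count limit, inclusion of sample 003, omission of sex, a fit to the 2 groups compared, a fit to all 6 groups, thinning to 921167 counts and the omission of each mouse. The earlier dispersion method of edgeR and the joint omission of mice 001, 011, 014 and 016 were added after the data were seen.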

Additional observations from a re-analysis of the deposited data

Results flagged for a closer look

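In 138 sets of 1 gene and 1 group (15 members of the list and 8 other named genes in 6 groups), 15 had a lowest or highest mouse farther from its neighbour than Dixon's 95% value allows, and chance gives about 1 in 20. Among the replication and division genes, Top2a stood at 71.97 normalized counts in 1 Ercc1Δ/− mouse at 6 weeks (mouse 027, next 29.26), Mcm6 at 199.2 in mouse 008 of the same group (next 144.2) and Tyms at 34.84 in 1 AL-fed Ercc1Δ/− mouse at 22 weeks (mouse 026, next 22.32). Rrm1 stood at 114.2 in 1 WT mouse at 6 weeks (mouse 019) and at 151.1 in 1 Ercc1Δ/− mouse on DR (mouse 016). Mouse 010 (WT, DR) was low for both Cdc45 (8.709) and Tpx2 (10.16). In AL-fed WT mice at 22 weeks, Ccne2 was low at 6.909 in mouse 018 and Anln high at 342.5 in mouse 012 (next 219.7).

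Of the other cell cycle genes, Ccnd2 was low at 769.3 in mouse 009 (WT, 6 weeks) and at 770.3 in mouse 012 (WT, 22 weeks, AL), Myc was high at 37.27 in mouse 015 (Ercc1Δ/−, 6 weeks), and Cdk6 was high at 85.83 in mouse 025 (WT, 22 weeks, AL). Lig1 was low at 39.96 in mouse 019 (WT, 6 weeks), and Ccnd1 was low at 72.55 in mouse 013 (Ercc1Δ/−, 22 weeks, AL), where the next mouse had 166.7. The fitted genotype effect on Cdkn1a was larger at 22 than at 6 weeks by 0.8311 on the log2 scale (adjusted p = 0.0453 for the interaction, edgeR), a call that was lost with all 6 groups in the fit, with sample 003 included, after thinning and without any 1 of 12 of the 18 mice.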

How the results depend on the processing

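No paired analysis was possible because each mouse gave 1 sample and sample numbers are not shared between groups. The counts of DEGs among the 23 genes stayed within 1.5 times of 4, 6 and 6 in the 3 genotype comparisons with DESeq2, RLE size factors, sample 003 included, sex omitted, a fit to the 2 groups compared, a fit to all 6 groups or the earlier dispersion method. With DESeq2 the count on AL at 22 weeks was also 6, but Rrm1 took the place of Prc1. Without the count limit, which admits all 49 genes, the counts were 7 at 6 weeks, 10 on AL at 22 weeks and 6 on DR. Of these, 4, 5 and 3 were among the original DEGs (on DR Bub1b, Cdk1 and Kif23 took the place of Cdc20, Cdc45 and Rrm1). After thinning they were 2, 0 and 2, where 1.05%, 6.17% and 8.61% of all genes were DEGs. Among the calls after thinning, 2, 0 and 1 were original DEGs (on DR Prc1, beside Mcm7). Without mice 001, 011, 014 and 016 the count at 6 weeks was 2, where 1.08% of all genes were DEGs. With 1 mouse left out the counts ran from 0 to 5, from 2 to 6 and from 4 to 6. The share of all genes ran from 0.826% to 1.83%, from 7.55% to 11.6% and from 9.45% to 12.9%. For DR in WT mice the count of 0 became 1 with DESeq2 (1.85% of all genes), 2 without the count limit (1.07% of all genes) and 0 to 1 with 1 mouse left out. For DR in Ercc1Δ/− mice the count of 1 became 0 with sample 003 included, in the fit to the 2 groups compared, in the fit to all 6 groups, after thinning and without the 4 mice, and was 0 to 1 with 1 mouse left out. Counts for age and for both interactions stayed at 0.

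Of the reported fold changes of single genes, 2 changed sign after thinning, Top2a with age in WT mice (0.0473) and Tyms with age in WT mice (−0.437), and none of these was a DEG. With 1 mouse left out, Top2a ran from −0.276 to 0.0534 with age in WT mice and from −0.38 to 0.15 in Ercc1Δ/− mice, and the interaction of genotype and diet for Cdkn1a from −0.11 to 0.15. In the genotype comparisons, the log2 fold changes of Top2a ran from 1.41 to 1.92 (6 weeks), 1.49 to 1.91 (AL) and 1.94 to 2.60 (DR) with 1 mouse left out. The cause of the changed counts was not tested, apart from the smaller number of reads after thinning. With 35 to 260 counts per gene over 28 samples, depth limits what the 26 untested genes can show.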
